A study of Mus musculus with 3 samples.

Results

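The genes described here are 7 signalling genes of epithelial cells and their close relatives: the receptor genes Egfr, Erbb2 and Erbb3, the adaptor gene Grb7, and the kinase genes Ripk4, Mapk13 and Mapk14. They were taken with all 20 Affymetrix probe sets that name 1 of these symbols alone, out of 45037 probe sets and 18193 genes. Erbb3, Grb7, Ripk4 and Mapk13 were chosen by their intensities, as some of the genes with the largest decrease in Snail-induced Flk1+ cells, and Egfr, Erbb2 and Mapk14 were added as relatives for contrast. The low values of the first 4 genes in that group are therefore a description and not a finding, and every comparison below uses the same 3 arrays. RNA came from the mouse embryonic stem cell line A2.snail, in which doxycycline switches on Snail, a zinc finger repressor of epithelial genes. The stem cells had differentiated until day 3 as embryoid bodies, clumps grown in suspension in which germ layers arise, in medium with 10% fetal calf serum and DKK1, a secreted inhibitor of Wnt signalling. There was 1 array for each of 3 sorted groups: Flk1- cells of a culture without doxycycline (0 ng/mL), and Flk1- and Flk1+ cells of cultures given 250 ng/mL doxycycline on day 2. Flk1, encoded by Kdr, is a VEGF receptor found on early mesoderm, from which vessels and blood arise. The untreated cells carry the same inducible gene, no array of doxycycline-treated cells without it was used here, and no untreated Flk1+ cells were compared, so induction, doxycycline and the Flk1 gate cannot be fully told apart.

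ErbB receptors are tyrosine kinases that pair with each other when ligands of the EGF and neuregulin families bind. Egfr binds EGF-like ligands, Erbb2 has no known ligand of its own and serves as the preferred partner, and Erbb3 binds neuregulins, has a weak kinase and passes the signal on through phosphoinositide kinase. Grb7 is an adaptor that docks through its SH2 domain on activated ErbB receptors. Ripk4 is a serine/threonine kinase with ankyrin repeats that epidermal differentiation requires, and Mapk13 and Mapk14 encode the delta and alpha forms of the p38 stress-activated kinases.

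With 1 array per group no difference has a replicate check, no p-value is given, and the number of arrays limits the precision. Values are deposited intensities on a linear scale, 1 per probe set and array. The median intensity over all probe sets was 42.7 in the untreated array, 42.4 in the induced Flk1- array and 44.6 in the induced Flk1+ array. Differences are given as log2(intensity + 9.53), which understates those of dim genes. The floor below which a value was treated as dim was 25.56, set at the 40th percentile over the arrays. A fold against a value under the floor was taken against the floor itself and reads "at least". Such a bound is a ratio of intensities without the offset, whereas the other folds come from the log2 differences and carry the offset. A gene's value is that of its brightest probe set, and a gene counted as measured when it reached the floor on at least 1 array, as 13974 of the 18193 genes and all 7 members did. The probe set of Snai1, which encodes Snail, gave 29.1, 13.1 and 19.8 in the order above and did not show the induced gene, while Kdr gave 10.5, 9.73 and 404, the order the sort labels give.

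Marker genes of cell types moved with these groups. All 16 epithelial markers were measured, and their summed intensity was 18874 in the untreated array, 7554 in the induced Flk1- array and 2448 in the induced Flk1+ array. Between Snail-induced Flk1+ and untreated cells, 13 of them were at least 2-fold lower and 0 higher, beside 6.47% lower over all measured genes. Krt8, Esrp2 and Cldn3 lay within 2-fold there. The summed intensity of 10 endothelial markers was 198, 226 and 4313, that of 10 mesenchymal markers 5718, 10725 and 22152, and that of 9 markers of the pluripotent epiblast 36601, 34822 and 19157. The 8 feeder fibroblast markers summed to 899, 1507 and 1289. The sum of 9 hematopoietic markers was 1808, 1171 and 1071. Myb, at 1179, 702 and 249.9, was its largest part in the untreated and induced Flk1- arrays, but Itga2b was brighter in the induced Flk1+ array, at 262. The list median was 0.60 higher on the log2 scale in Snail-induced Flk1+ than in Snail-induced Flk1- cells. The sum of 10 markers of primitive and visceral endoderm was 2110.3, 2671 and 6239, carried by Sparc, up to 4502, and Sox17, up to 1466, while Cubn gave 219.6, 257 and 44.0 and the list median between the same groups was -0.01. The 8 trophoblast markers summed to 582, 607 and 531, with a list median of 0.50 between those groups. The 6 markers of surface ectoderm and keratinocytes summed to 206, 188 and 249, with Krt5, Krt14 and Krt15 under the floor on every array. Other defining markers under the floor throughout were Afp, Ttr, Apoa1, Apoa4 and Foxa2 for endoderm, Col1a1 and Postn for feeders, and Cdx2 and Elf5 for trophoblast. In sorted bulk RNA, fewer cells of a type and less RNA per cell cannot be told apart, and the part of cell makeup in the results below was not tested.

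Of the 3 ErbB receptors among the members, Erbb3 alone was low in the Snail-induced groups. Its brightest probe set gave 507 in the untreated array, 164 in the induced Flk1- array and 13.8 in the induced Flk1+ array. The value was highest in the untreated array, intermediate in the induced Flk1- array and under the floor in the Flk1+ array. Erbb3 was 2.98-fold lower in the first step, from untreated to Snail-induced Flk1- cells, and at least 6.41-fold lower in the second, from Snail-induced Flk1- to Snail-induced Flk1+ cells. Its other probe set stood at 24.7, 25.7 and 23.5, at the level of the floor on all 3 arrays, and showed no such difference. The description of Erbb3 therefore rests on 1 probe set.

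Erbb2, the usual partner of Erbb3, was read by a single probe set that gave 111 in the untreated array, 150.1 in the induced Flk1- array and 163 in the induced Flk1+ array. It was above the floor on every array and slightly higher in both induced groups, by 0.41 and 0.52 on the log2 scale against untreated cells, short of 2-fold. The array that placed Erbb3 under the floor thus had its partner at the highest of the 3 Erbb2 values.

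Egfr was read by 7 probe sets, of which 5 reached the floor on at least 1 array. The brightest gave 171 in the untreated array, 141 in the induced Flk1- array and 197 in the induced Flk1+ array, with log2 differences of -0.26 in the first step and 0.46 in the second. The second brightest went the opposite way in both steps, at 40.2, 48.4 and 28.3. A dim Egfr probe set went from 10.9 and 8.36 to 27.1, just past 2-fold in the second step. No direction can be read for Egfr, and none of its probe sets was 2-fold apart between Snail-induced Flk1+ and untreated cells. Erbb4, the fourth receptor of the family and not a member, stayed under the floor at 5.21, 6.58 and 5.95.

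Grb7 was read by 1 probe set, which gave 720.05 in the untreated array, 301 in the induced Flk1- array and 30.7 in the induced Flk1+ array. It stayed just above the floor in the Flk1+ array, so it is the one of the 4 reduced members whose fold is not a bound. Grb7 was 2.35-fold lower in the first step and 7.73-fold lower in the second.

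Ripk4 was read by 2 probe sets that had the same order of arrays. The brighter gave 507 in the untreated array, 176 in the induced Flk1- array and 15.4 in the induced Flk1+ array, and the dimmer gave 65.8, 40.7 and 9.04. Both were highest in the untreated array and under the floor in the Flk1+ array. The brighter was 2.79-fold lower in the first step and at least 6.87-fold lower in the second. The dimmer was 1.5-fold lower in the first step, short of 2-fold, and at least 1.59-fold lower in the second. The brighter carries the suffix of a probe set that may read more than 1 transcript.

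Mapk13 was read by 1 probe set, which gave 268 in the untreated array, 66.2 in the induced Flk1- array and 1.0 in the induced Flk1+ array. The last value is far under the floor, so the fold there is a bound. Mapk13 was 3.67-fold lower in the first step and at least 2.59-fold lower in the second, the latter limited by how near its middle value lay to the floor.

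Mapk14, which lies next to Mapk13 on the chromosome, was read by 6 probe sets, 5 of them at or above the floor. The brightest gave 2449 in the untreated array, 2159 in the induced Flk1- array and 3085 in the induced Flk1+ array. The next 3 gave 330, 294 and 298, then 252, 230 and 242, then 150.3, 145.5 and 123. No Mapk14 probe set was 2-fold apart in any of the comparisons, and the directions were mixed in the second step.

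**Figure D1:**
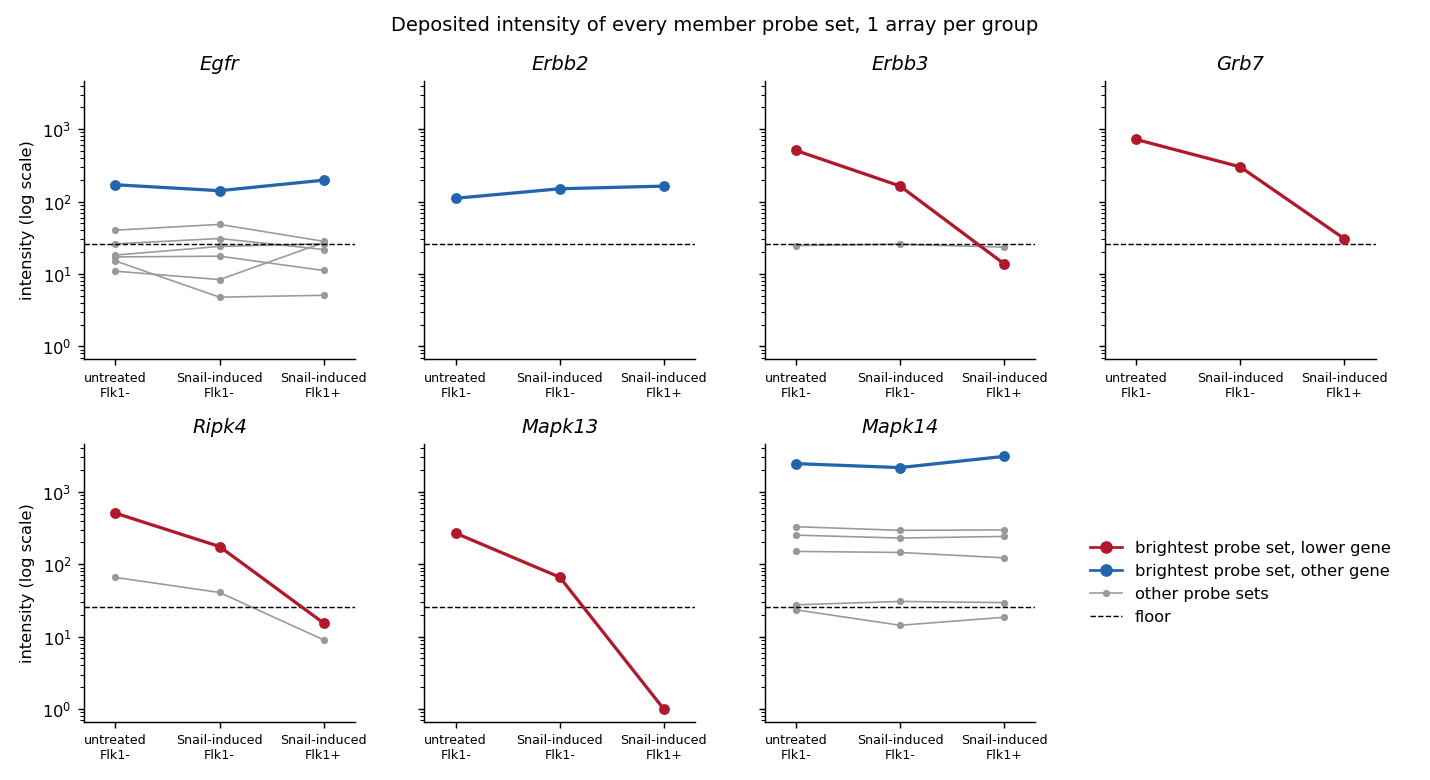
Deposited intensity (log axis) of each of the 20 probe sets of the 7 members on the 3 arrays, 1 panel per gene, with the brightest probe set in colour, the others in grey and the floor of 25.56 dashed. The brightest probe sets of Erbb3, Grb7, Ripk4 and Mapk13 step down from untreated Flk1- to Snail-induced Flk1- to Snail-induced Flk1+ cells, where only Grb7 stays above the floor. The dimmer Erbb3 probe set stays at the level of the floor. Erbb2 and the brightest Egfr and Mapk14 probe sets stay within 2-fold.

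Mapk13 and Mapk14 lie side by side on chromosome 17. Sequences from RefSeq (GRCm38.p6) were found for 4 of the 7 members, Egfr, Erbb2, Mapk13 and Mapk14; Erbb3, Grb7 and Ripk4 are not shown. Below are the 250 bases before the start of each p38 gene, 5′ to 3′ on the plus strand, shown because these adjacent genes differed in their values. Capitals mark CAGGTG or its reverse complement CACCTG, the E-box form that Snail is known to bind. The Mapk13 stretch is chr17:28769067-28769316, and the Mapk14 stretch, 1 of 2 listed for that gene, is chr17:28691092-28691341.
Mapk13: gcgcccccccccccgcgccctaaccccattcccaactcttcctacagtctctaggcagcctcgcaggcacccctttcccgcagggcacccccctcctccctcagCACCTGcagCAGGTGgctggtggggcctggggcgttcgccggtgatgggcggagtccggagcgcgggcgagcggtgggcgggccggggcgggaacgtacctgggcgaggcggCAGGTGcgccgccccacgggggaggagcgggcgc
Mapk14: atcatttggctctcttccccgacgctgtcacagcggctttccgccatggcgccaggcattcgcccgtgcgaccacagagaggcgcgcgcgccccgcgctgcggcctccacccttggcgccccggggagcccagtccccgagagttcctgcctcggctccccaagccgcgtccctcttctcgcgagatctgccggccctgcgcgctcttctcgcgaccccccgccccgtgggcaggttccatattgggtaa

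The Mapk13 stretch held 3 matches, whose first bases lay 146, 137 and 34 bases before the start. The motif was searched on both strands by looking for both spellings, which are the reverse complements of each other and both belong to the wider E-box CANNTG. Neither Mapk14 stretch held a match, nor did the Egfr and Erbb2 stretches. Of 32851 stretches of the same length in the table, 5657 (17.2%) held at least 1 match and 81 (0.25%) held at least 3. GC content was 76% for Mapk13 and 70.4% for the Mapk14 stretch shown. The stretches counted were not matched for GC content, and the cutoff of 3 equals the Mapk13 count. A match describes these letters and is not a binding site or a cause.

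The first comparison addresses Snail induction within the Flk1- gate, and in it 4 of the 7 members were at least 2-fold lower and 0 higher. The shares over all measured genes were 2.06% lower and 3.00% higher; with each array centred on its median the shares of calls change, 44.0% of them being higher against 59.3% as deposited. The 4 genes were those the choice of members had fixed, and this contrast shares the untreated array with it. By size of decrease among 13974 measured genes, Mapk13 ranked 13, Erbb3 34, Ripk4 47 and Grb7 134.

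The second comparison addresses the Flk1 gate after induction. Here 4 of 7 passed 2-fold downward and 0 upward, beside 4.94% lower and 4.94% higher over all measured genes. The 4 genes were chosen for their decrease in the Flk1+ array, which this contrast uses, so nothing is read from this count. The log2 differences were -2.95 for Grb7, -2.89 for Erbb3, -2.89 for Ripk4 and -2.85 for Mapk13. The Flk1+ values of the last 3 lay under the floor, so the offset sets these numbers and they give no order: over the alternatives other than the second brightest probe set, Mapk13 ran from -6.05 to -1.79 and Erbb3 from -3.57 to -1.49, against -3.30 to -2.54 for Grb7. Egfr, Erbb2 and Mapk14 were at 0.46, 0.11 and 0.51.

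The third comparison spans both steps and was used to choose the members. In it 4 of 7 passed 2-fold downward and 0 upward, beside 6.47% lower and 8.24% higher over all measured genes; nothing is read from this count. Grb7, measured on both sides, was 18.2-fold lower with the offset, a log2 difference of -4.18. Its plain ratio of intensities, the measure nearer to the bounds that follow, was 23.5. The decrease was at least 19.9-fold for Erbb3 and for Ripk4, and for Mapk13 at least 10.5-fold; their log2 differences with the offset were -4.47, -4.37 and -4.72, and the bounds give no order among the 4 genes. The first step held 39.7% of the log2 decrease for Mapk13, 35.3% for Erbb3, 33.9% for Ripk4 and 29.5% for Grb7. Because the Flk1+ values of Mapk13, Erbb3 and Ripk4 lay under the floor, these shares depend on the offset.

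**Figure D2:**
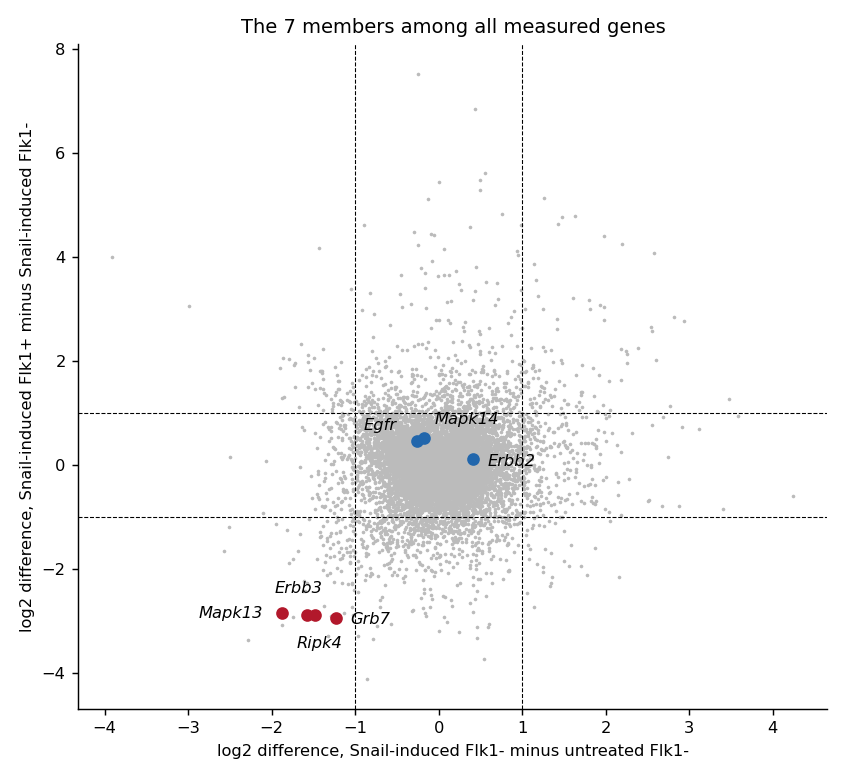
Each point is a measured gene, by its log2 difference between Snail-induced Flk1- and untreated Flk1- cells (horizontal) and between Snail-induced Flk1+ and Snail-induced Flk1- cells (vertical), with 2-fold lines dashed. Erbb3, Grb7, Ripk4 and Mapk13 (red) lie at -1.23 to -1.88 and -2.85 to -2.95, and Egfr, Erbb2 and Mapk14 (blue) lie inside the 2-fold lines on both axes.

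Genes at least 2-fold lower in both steps numbered 89 of 13974 (0.637%), the 4 reduced members among them. These 4 were chosen by the decrease that both steps add up to, so nothing is read from their place here. Those at least 2-fold higher in both numbered 108 (0.773%) and included 0 members. Both steps share the Snail-induced Flk1- array, so an error in that array would move them in opposite directions.

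The genes whose pattern over the 3 arrays was most like each reduced member were found by the distance between log2 values centred on each gene's mean. The gene nearest to Erbb3 was Ripk4, and the reverse held, at 0.078 on the log2 scale. Next to Erbb3 came Esrp1, which regulates splicing in epithelia, at 0.157, and Mapk13 at 0.228. Nearest to Grb7 were Pard6b, a polarity gene, at 0.042, Lypd6b at 0.14 and Fgf5, a growth factor gene of the epiblast, at 0.17. After Erbb3, Ripk4 had Pard6b at 0.157 and Grb7 at 0.185, and Mapk13 had Esrp1 at 0.094, the hormone gene Trh at 0.196 and Erbb3 at 0.228. The Flk1+ values of Erbb3, Ripk4, Mapk13 and Lypd6b lay under the floor, so the distances that involve them rest on dim values and on the offset. Likeness over 3 arrays is a loose measure, and these genes were all chosen or found for large decreases.

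Relatives of the reduced members in their own gene families followed other patterns or shared theirs in part. Of the 3 adaptors of the Grb7 family, Grb10 went the opposite way. Its brightest probe set gave 2378 in the untreated array, 4351 in the induced Flk1- array and 8769.8 in the induced Flk1+ array, 1.83-fold higher in the first step and 2.01-fold in the second, and all 3 of its probe sets had that sign in both steps; with quantile normalisation the second step was 0.95 on the log2 scale, short of 2-fold. Grb14 was lower with Grb7, at 116, 46.9 and 17.8, which is 2.22-fold lower in the first step and at least 1.83-fold in the second. A second Grb14 probe set, under the floor throughout, went the other way.

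The p38 kinases split likewise. Mapk12, the gamma form, gave 925, 439.8 and 477 and was 2.08-fold lower in the first step, with its second probe set also lower, but within 2-fold in the second step at 0.12 on the log2 scale. Mapk11, the beta form, gave 164, 148 and 198 and lay within 2-fold throughout. Of the 4 p38 genes, 2 were at least 2-fold lower in the first step and 1, Mapk13, in the second.

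Of 6 RIP kinases listed, Ripk1, Ripk2 and Ankk1 had no probe set of their own. Among the rest, Ripk3, which drives necroptosis, gave 146, 305 and 579.6, the reverse of Ripk4. It was 2.02-fold higher in the first step, short of 2-fold at 0.91 on the log2 scale with each array centred on its median and at 0.92 with quantile normalisation, and 1.87-fold higher in the second. Dstyk gave 112, 152 and 203, within 2-fold in each comparison.

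**Figure D3:**
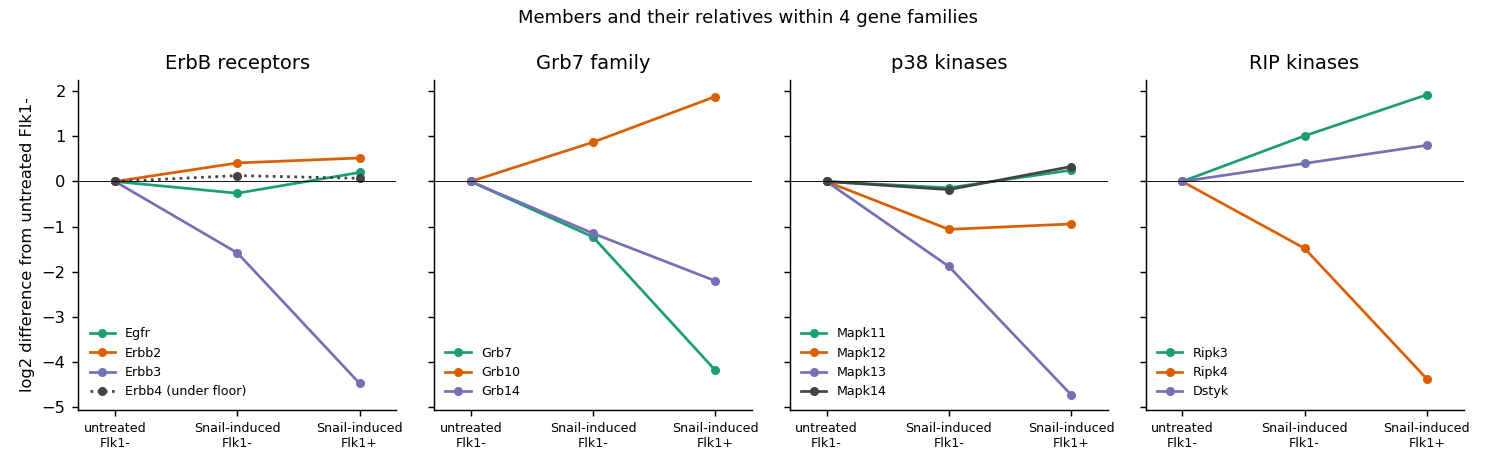
Log2 difference from the untreated Flk1- array (vertical) across the 3 arrays (horizontal) for the ErbB receptors, the Grb7 family, the p38 kinases and the RIP kinases, 1 line per gene by its brightest probe set. Only RIP kinases with a probe set of their own are drawn. Erbb3, Grb7, Mapk13 and Ripk4 reach -4.18 to -4.72 in Snail-induced Flk1+ cells, while Grb10 reaches 1.88 and Ripk3 1.92; Erbb4 is dotted because it lies under the floor.

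The ligands came from a list of 11, of which 8 were measured. None was 2-fold apart in the first step, and 1 was higher in the second, with list medians of 0.07 and 0.35 beside 0.039 and 0 over all measured genes. That gene was Ereg, which encodes epiregulin, a ligand of Egfr and Erbb4, at 33.6, 44.3 and 205, 3.98-fold higher in the second step by its one probe set above the floor. Nrg1, which encodes a ligand of Erbb3, gave 33.6, 22.7 and 33.0, near the floor on each array.

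Of 28 measured adaptors and kinases downstream of ErbB receptors, 1 was at least 2-fold higher and 0 lower in the first step, and 2 were higher and 0 lower in the second, with medians of 0.23 and 0.29. Pik3r3, a regulatory subunit of phosphoinositide kinase, gave 135, 356 and 456 and was 2.53-fold higher in the first step. Gab2, a docking protein, gave 75.5, 94.7 and 644 and was 6.27-fold higher in the second. Stat3, a transcription factor that cytokine and growth factor receptors activate, gave 219.9, 432 and 1087 and was 2.49-fold higher in the second, with all 3 probe sets of the same sign. Against untreated cells, 6 of 28 were higher in the Flk1+ array and 1 lower, the kinase subunit gene Pik3cb, at 93.9, 89.99 and 40.7, which was picked after its values were seen. Shared adaptors such as Grb2, at 362, 400.4 and 493, lay within 2-fold.

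Among 14 genes listed here under negative regulation of ErbB signalling, 0 were 2-fold apart in the first step and 1 was higher in the second, with medians of 0.17 and 0.06. This was Erbin, which binds Erbb2, at 459.5, 459.8 and 945, 2.03-fold higher, with 2 of its 4 probe sets above the floor of that sign; it was short of 2-fold at 0.99 on the log2 scale with quantile normalisation. Errfi1, a feedback inhibitor of Egfr, gave 372, 424 and 408. Whether each listed gene restrains ErbB signalling in these cells was not tested.

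Activators and substrates of p38 kinases numbered 25 measured genes, of which 2 were higher and 0 lower in each step, with medians of 0.15 and 0.07. The first step held Map2k6, an activator of p38, at 302, 635 and 566, 2.07-fold higher; it was short of 2-fold with each array centred on its median, at 0.95 on the log2 scale, and with quantile normalisation, at 0.98. Mef2c, a transcription factor gene of muscle and endothelium and a p38 substrate, gave 2.55, 82.7 and 621, at least 3.23-fold and then 6.84-fold higher, and Mef2a was 2.16-fold higher in the second step, from 539.7 to 1177. Of 7 other MAP kinases, only Mapk10, a JNK gene, was 2-fold apart, 3.57-fold higher in the first step, from 52.8 to 213.

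The list of Ripk4 partners and epidermal regulators held 12 measured genes, of which 2 were at least 2-fold lower and 0 higher in the first step and 5 lower and 1 higher in the second, with medians of -0.31 and -0.61. The keratin gene Krt18 gave 3152, 904 and 238, 3.46-fold and then 3.70-fold lower. Krt8, another keratin gene of the list, gave 625, 523 and 644 and lay within 2-fold. Tfap2c, Klf5 and Grhl2, transcription factor genes of epithelia, were 3.03-fold, 2.72-fold and 2.78-fold lower in the second step; Tfap2c and Klf5 were within 2-fold in the first, unlike Ripk4, at 280 and 315 and at 303 and 344. For Grhl2 the values were 372, 216 and 71.5, but 1 of its 2 probe sets above the floor went the other way in the second step. Trp63, the master gene of the epidermis, gave 21.8, 12.9 and 38.9, near the floor, and counts as the gene that was higher.

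Other kinases of epithelial cells differed in both directions. Of 19 measured, 1 was lower and 1 higher in the first step, and 4 were lower and 3 higher in the second, with medians of 0.20 and -0.02. Met, the receptor of hepatocyte growth factor, was lower in both steps like Erbb3, at 302, 128 and 29.4, 2.27-fold and then 3.53-fold lower, and its dimmer probe set had the same signs. Ddr1, a collagen receptor kinase, gave 1866, 1280.0 and 389 and was 3.23-fold lower in the second step. Prkch, a protein kinase C gene, gave 21.7, 76.4 and 339.9 and was at least 2.99-fold and then 4.07-fold higher, and Tnik was 2.70-fold higher in the second step.

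Of 18 measured receptor kinases of mesenchymal or endothelial cells, 3 were higher and 0 lower in the first step, and 7, the sorted gene Kdr among them, were higher and 2 lower in the second, with medians of 0.21 and 0.02. Pdgfra gave 27.5, 202 and 123 and was 5.72-fold higher in the first step. Flt1 and Tek, endothelial receptor genes, were at least 21.7-fold and 10.2-fold higher in the second. Ror1 and Mertk were 2.72-fold and 2.62-fold lower there.

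**Figure D4:**
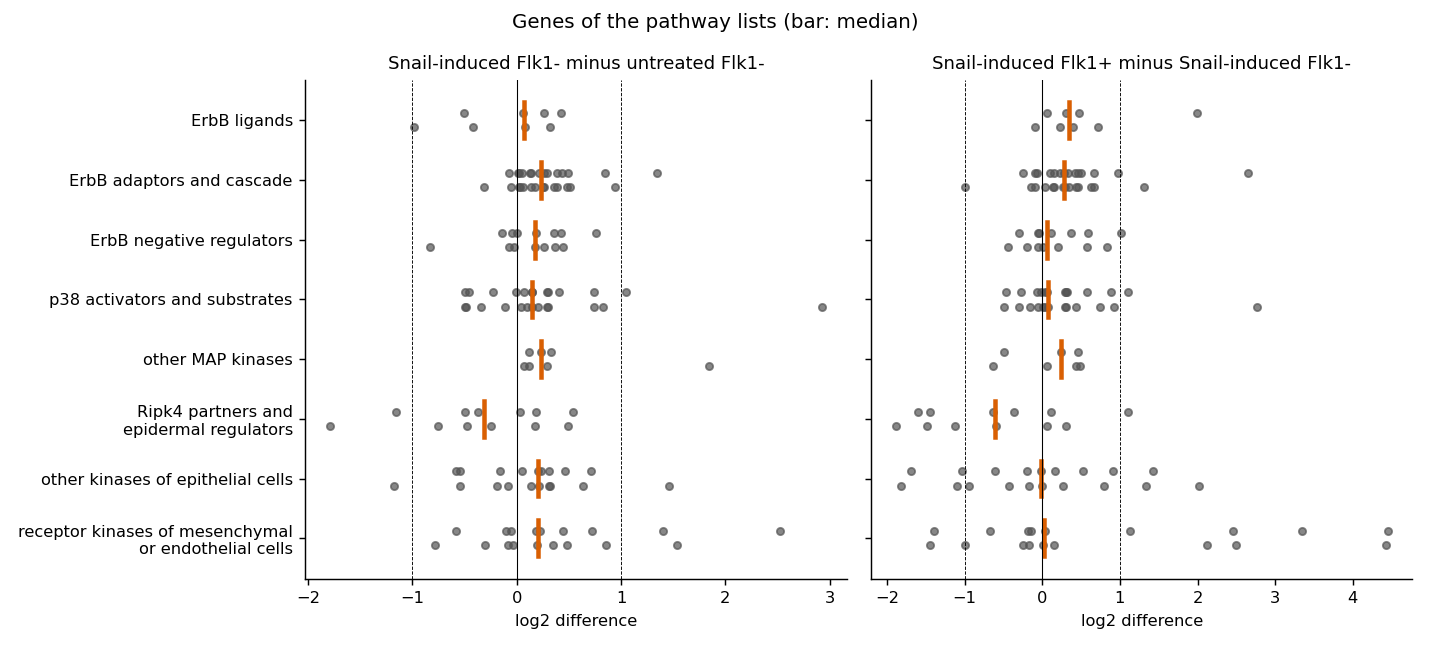
Log2 difference (horizontal) of each measured gene (points) of 8 pathway lists in the first step (left) and the second step (right), with the list median as a bar and 2-fold lines dashed. Medians lie between -0.31 and 0.23 on the left and between -0.61 and 0.35 on the right, with the Ripk4 partners and epidermal regulators lowest in both panels.

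The genes directly beside the reduced members lay within 2-fold of the untreated array or under the floor. Grb7 lies 2 protein-coding genes from Erbb2 on chromosome 11, with Mien1 between them, and Mien1 gave 1725, 1546 and 978 while Ikzf3 on the far side of Grb7 gave 38.6, 38.5 and 43.9. Pa2g4, whose product binds Erbb3, and the ribosomal gene Rps26 flank Erbb3 on chromosome 10 and gave 2462, 2131 and 2115 and 10195.5, 10398 and 9812. Brpf3, the next gene after Mapk13, gave 107, 104 and 95.3. Beside Ripk4 on chromosome 16, Prdm15 gave 154, 192 and 228, and Tmprss2 was under the floor.

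Of 49 genes within 5 places of a member, 35 were measured. In the first step 1 was at least 2-fold lower, Dscam near Ripk4 at 39.4, 8.81 and 41.5, and 1 higher, Bnip5 near Mapk13 at 14.5, 40.2 and 24.4, all close to the floor or under it; with each array centred on its median Bnip5 was short of 2-fold at 0.95. In the second step 1 was lower and 5 were higher. The lower gene was Cobl, an actin regulator near Egfr, at 142, 134 and 14.4, under the floor in Flk1+ cells, although its second brightest probe set went the other way. Against untreated cells, 1 was lower, Cobl, and 4 were higher, among them C2cd2 near Ripk4, at 47.7, 93.7 and 168, and Cnrip1 near Egfr, at 157, 258 and 642. Grb10 is also a neighbour of Egfr in this order. The median of the 35 was 0.14, beside 0.015 over all measured genes.

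**Figure D5:**
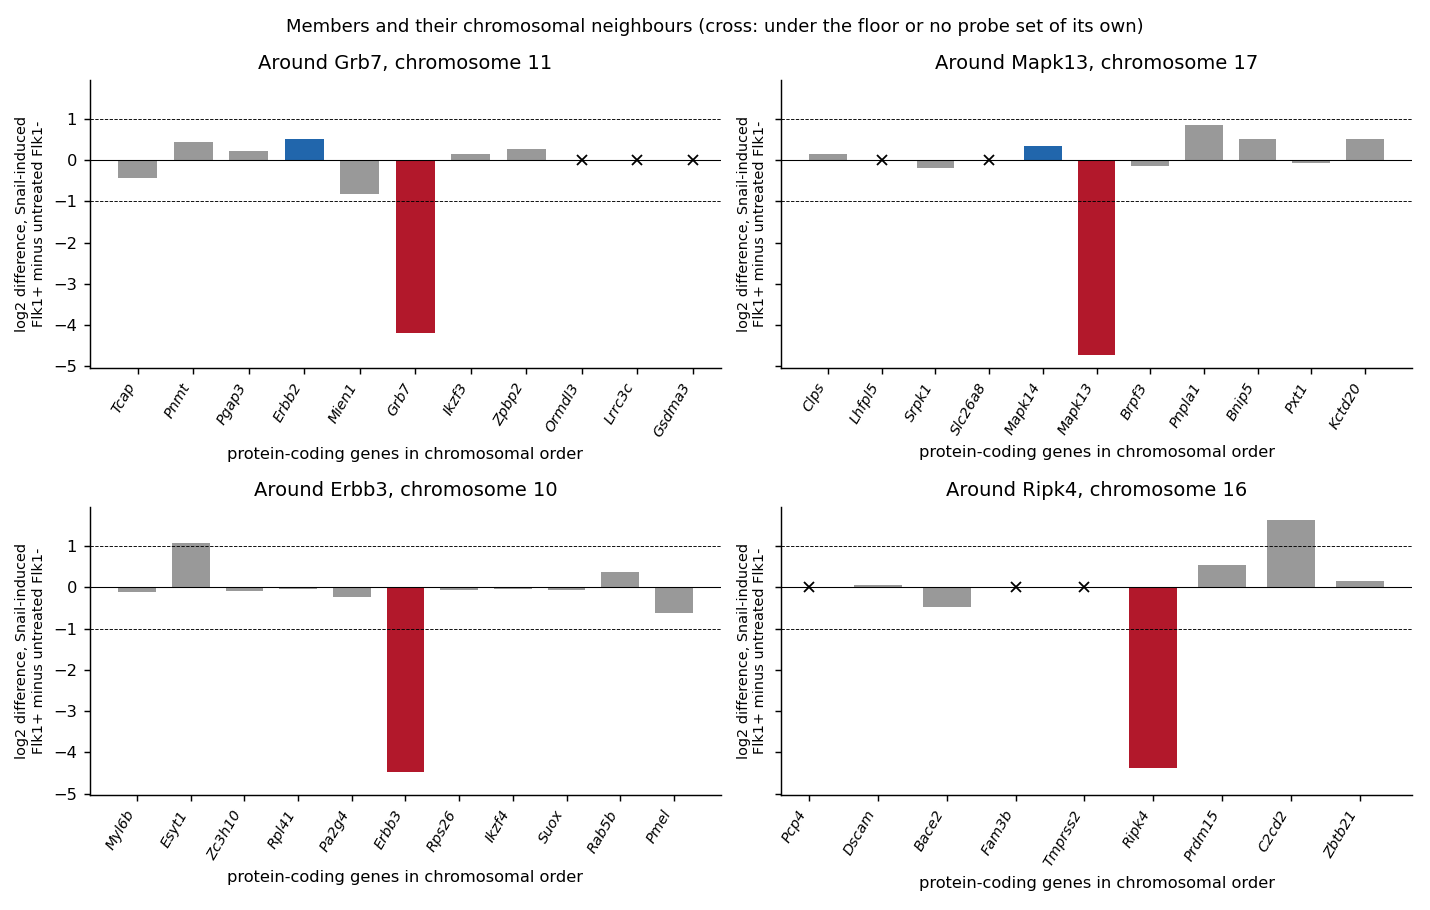
Log2 difference between Snail-induced Flk1+ and untreated Flk1- cells (vertical) of the protein-coding genes up to 5 places either side of Grb7, Mapk13, Erbb3 and Ripk4 in chromosomal order (horizontal, not to distance), with 2-fold lines dashed and a cross where a gene was under the floor or had no probe set of its own. Only the 4 members (red) pass the lower line; Erbb2 and Mapk14 are blue.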

How the data were processed

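The authors deposited linear intensities, 1 value for each probe set on each array; per the labels' protocols, biotinylated cRNA was made from 2 ug of total RNA by the standard Affymetrix procedure. The summary method, the scaling and the software remain not given in the sources used here. Columns were used as deposited. Gene names came from the annotation of the array platform, brought up to date through Entrez IDs with a RefSeq table of GRCm38.p6: 34945 had 1 symbol and were used, 932 had several and 9160 none, and 204 of the first kind kept the annotation's symbol. Values became log2(intensity + 9.53), where the offset is the 20th percentile over the arrays. Calls are differences of at least 2-fold among 13974 measured genes, with no test. The members, 12 pathway lists and 9 marker lists were chosen with earlier results of these data known. Named list genes are up to 4 per list with the largest difference among those 2-fold apart in either step, up to 2 going the other way, all chromosomal neighbours 2-fold apart, and the 3 genes nearest in pattern; the text names part of these, and further genes as relatives, flanking genes or steady examples, picked after their values were seen. The counting step was tested on simulated data. Alternatives were quantile normalisation, centring, the mean of a gene's probe sets, dropping _s_at and _x_at probe sets, the second brightest probe set, other floors and offsets, and a threshold of 3-fold. Python 3.11.15, pandas 2.3.3 and numpy 2.4.6 were used.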

Additional observations from a re-analysis of the deposited data

How the results depend on the processing

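Read from the second brightest probe set, which 4 members have, 0 members were at least 2-fold lower in the first step, 1 in the second and 1 between Snail-induced Flk1+ and untreated cells; the smaller number of members is part of that setting. At 3-fold, 1 member, Mapk13, was lower in the first step. The other 56 counts over members stayed within 1.5 times. Without probe sets of the suffixes _s_at and _x_at Ripk4 was left with its dimmer probe set, which gave -0.58 in the first step. With the mean of its probe sets Erbb3 gave -0.77 there, since its probe sets gave -1.58 and, at the level of the floor, 0.04. Across alternatives other than the second probe set, the log2 difference between Snail-induced Flk1+ and untreated cells ran from -8.07 to -3.47 for Mapk13, -5.20 to -2.26 for Erbb3, -5.04 to -2.02 for Ripk4 and -4.55 to -3.73 for Grb7.

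Among differences of at least 2-fold, signs turned with the second brightest probe set for Erbb3 (0.04) and Grb14 (1.07) in the first step. In the second step they turned for Cobl (0.67), Esyt1 (-0.64), Grb14 (0.44), Grhl2 (1.55), Trp63 (-0.38) and Zpbp2 (-0.75). Between Snail-induced Flk1+ and untreated cells they turned for Cobl (0.84), Esyt1 (-0.37), Grb14 (1.51), Grhl2 (0.10) and Pdgfrb (0.00). Smaller differences changed sign too. By its second brightest probe set Egfr gave 0.22, -0.62 and -0.4 in the 3 comparisons, against -0.26, 0.46 and 0.2. Mapk14 gave -0.14 against 0.33 between Snail-induced Flk1+ and untreated cells. With the mean of all probe sets, Dscam (0.19, first step) and Grhl2 (0.32, second step) turned. Of 1506 values for 58 named genes, 1391 kept their side of 2-fold, 92 fell short of it, 8 passed it and 15 turned. A turn was counted only where the difference before the change of setting was at least 2-fold. Sign changes of smaller differences are not among the 15. Of 648 list counts, 76 moved by over 1.5 times.

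Over all measured genes in the first step, 288 lower became 178 with the mean of probe sets, 170 with the floor at the 60th percentile, 537 with no offset, 137 with the offset at the 40th percentile and 33 at 3-fold, and 419 higher became 264, 629 with no offset, 262 with the higher offset and 116 at 3-fold. At 3-fold, the second step had 232 lower and 251 higher against 690 and 691, and the third comparison 400 lower and 528 higher against 904 and 1151. No paired analysis was possible because each group has 1 array. Signal over the floor limits Mapk13, Erbb3 and Ripk4 in Flk1+ cells to bounds.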
